A study of Mus musculus with 6 samples.

Results

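The genes described here are 50 mouse genes of the lysosome: its degradative enzymes, the proteins of its lumen and limiting membrane, the subunits of its proton pump (the V-ATPase), and 3 regulators. They were chosen by exact match of the gene symbol. Of the 50, 45 were among the 10520 genes of the count table, and 42 were among the 8969 genes that passed the filter on low counts and were tested. Counts of Ctsa, Ctsc, Ctsh, Neu1 and Atp6v0c were not analysed here, while their promoters were searched where at hand.

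Lysosomes are acidic organelles in which proteins, glycans and lipids delivered by endocytosis and autophagy are broken down. The V-ATPase acidifies them: its cytosolic V1 sector hydrolyses ATP, its membrane-embedded Vo sector passes protons into the lumen, and reversible assembly of the sectors sets pump activity. Many lysosomal genes carry a palindromic E-box element in their promoters to which TFEB and TFE3 bind, transcription factors that are held in the cytosol when mTORC1 is active on the lysosomal surface.

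Expression was measured in E0771 cells, a mammary adenocarcinoma line labelled as C57BL/6 in strain, in order to see which transcripts differ once lamin A/C, the intermediate filament protein that stiffens the nuclear envelope, is depleted. The 3 shControl libraries came from cells that received the empty TRC2 pLKO.5-puro vector, and the 3 shLmna libraries from cells that received a MISSION shRNA plasmid against lamin A/C. Both groups were infected with concentrated lentivirus, selected with puromycin and expanded, so each is a selected population and the control vector carries no hairpin. The libraries were 3′ end libraries (MARS-seq) with unique molecular identifiers (UMIs), so that 1 UMI stands for 1 captured transcript. No age or treatment time is given, the titles of the shLmna libraries call the hairpin shRNA4, and nothing in the labels says whether replicates were separate cultures, so p-values measure the spread between these libraries only.

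The libraries held 1846208 to 3242051 UMIs, and values below are UMI counts or, where so named, normalized UMI counts, scaled to a library of average depth. The groups sat at neighbouring plate positions, 13 to 15 for shControl and 16 to 18 for shLmna, so position and knockdown cannot be told apart. Lmna, on chromosome 3, was counted 2066, 2794 and 1764 times in the shControl libraries and 1035, 1023 and 713 times in the shLmna libraries, a log2 fold change of -1.20 ± 0.13 (SE; adjusted p = 3.55e-05, edgeR's quasi-likelihood test). Of the breast epithelial list 6 of 11 genes were in the table, summing to 719 to 856 normalized counts in shControl and 768 to 861 in shLmna libraries. The keratin gene Krt8, at 516 to 814 UMIs per library, made up most of these and had a log2 fold change of 0.07 (adjusted p = 0.776, edgeR). The receptor gene Erbb2 had 0.37 (adjusted p = 0.319, edgeR), and Krt7 and Foxa1 were removed by the filter. The adhesion gene Epcam was lower in every shLmna library, at 33.1, 35.7 and 33 normalized counts against 13, 29.2 and 10.6 (log2 fold change -0.90, adjusted p = 0.0909, edgeR, with all libraries; -1.51, adjusted p = 0.00834, edgeR, without the libraries set apart below), and Krt18, at 14 to 19 against 7 to 20 UMIs, had -0.53 (adjusted p = 0.453, edgeR). Krt19, Cdh1, Esr1, Pgr and Gata3 were not analysed here. Of the macrophage list 4 of 11 genes were in the table, summing to 104 to 117 normalized counts in shControl and 83 to 89.8 in shLmna libraries. Of these Cd14 fell (log2 fold change -1.30, adjusted p = 0.00256, edgeR) and Lyz2, which encodes a lysozyme, rose (1.28, adjusted p = 0.011, edgeR). Cd68 had -0.62 (adjusted p = 0.234, edgeR), and Csf1r stood at 0 to 7 UMIs. Of the fibroblast list 3 of 7 were in the table, summing to 39.5 to 55.1 and 83.8 to 102. Acta2 (2.18, adjusted p = 0.00147, edgeR) and Pdgfrb (0.74, adjusted p = 0.0457, edgeR) rose, while Pdgfra had 0.04 (adjusted p = 0.958, edgeR). Acta2 and Lyz2 were at the level of the filter on low counts in every shLmna library but not in every shControl library. A difference was thus built into their being tested. Of the endothelial list only Pecam1 was in the table, at 2 to 7 UMIs. The part of these cell types in the lysosomal differences was not tested.

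A pair of libraries stood apart from the other 4. The melanocyte genes Pmel, Tyrp1, Dct and Mlana, which encode melanosome proteins and pigment enzymes, together gave 1354 UMIs in shControl replicate 3 and 1582 UMIs in shLmna replicate 2, which is 0.0714% and 0.0605% of those libraries. In the other 4 libraries the same genes summed to 1 to 12 UMIs. The study also worked with a melanoma line, B16F10. There is 1 such library in each group, so the counts below are given for all 6 libraries, for the 4 libraries left without them, and with the level of the 4 melanocyte genes as a covariate.

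**Figure D1:**
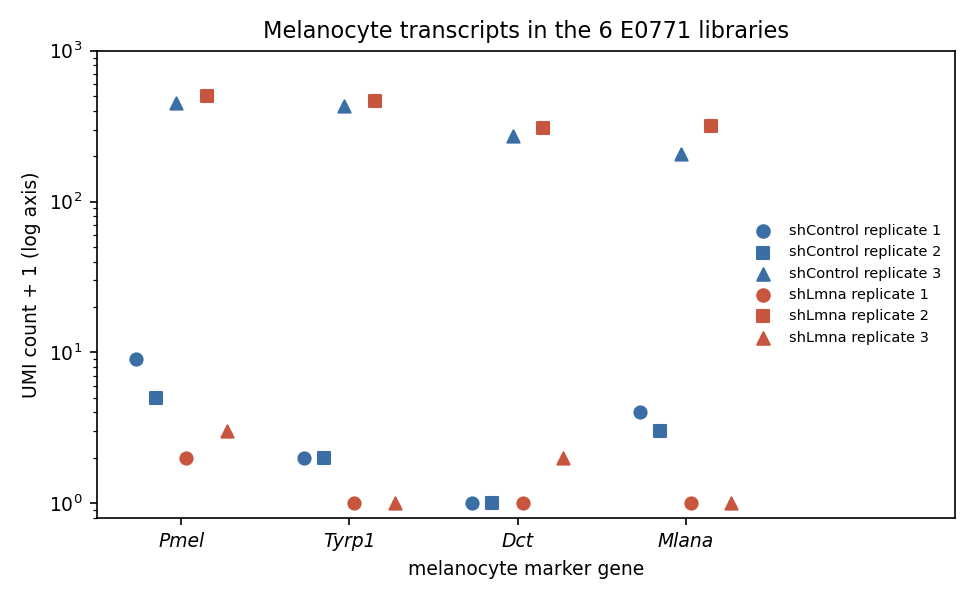
UMI counts plus 1, on a log axis, of 4 melanocyte genes in each E0771 library (blue, shControl; red, shLmna; symbol, replicate number). shControl replicate 3 and shLmna replicate 2 lie far above the other 4 libraries for every gene, with 1354 and 1582 UMIs over the 4 genes against 1 to 12.

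The promoters of the lysosomal genes were searched for the E-box element, which a minority of them held. RefSeq promoters, from 250 bases before to 50 bases after the annotated start (build GRCm38.p6), were at hand for 42 of the 50 genes. The E-box CACGTG, which reads the same on both strands, was in 14 of them (33.3%), against 12.4% of the tested genes with a promoter and 8.09% of all genes with one. GTCACGTG, a longer form that contains CACGTG, was searched on both strands and was in 9 (21.4%), against 5.11% of the tested and 2.55% of all genes. The 14 include pump subunits of both sectors (Atp6v0b, Atp6v0d1, Atp6v0e, Atp6v1a), enzymes (Ctsa, Ctsd, Ctsl, Gaa, Gla, Glb1), membrane proteins (Lamp1, Mcoln1, Cln3) and Lamtor1. A set of 6 is shown, because they span these roles and hold the longer form. They are printed 5′ to 3′ on the strand of the gene, with the E-boxes and the adjoining GT or AC of the longer form in capitals.
Lamp1, chr8:13159050-13159201, plus strand: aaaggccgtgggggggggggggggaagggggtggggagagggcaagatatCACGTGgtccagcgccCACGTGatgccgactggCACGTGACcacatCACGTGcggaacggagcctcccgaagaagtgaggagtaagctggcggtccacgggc
Mcoln1, chr8:3500396-3500531, plus strand: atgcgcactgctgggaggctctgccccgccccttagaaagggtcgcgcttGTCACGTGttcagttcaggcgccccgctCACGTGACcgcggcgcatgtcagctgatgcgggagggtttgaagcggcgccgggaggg
Cln3, chr7:126583300-126583435, minus strand: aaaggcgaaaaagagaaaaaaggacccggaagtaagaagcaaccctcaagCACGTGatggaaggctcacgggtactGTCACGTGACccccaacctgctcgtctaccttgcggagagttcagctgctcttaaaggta
Glb1, chr9:114400978-114401085, plus strand: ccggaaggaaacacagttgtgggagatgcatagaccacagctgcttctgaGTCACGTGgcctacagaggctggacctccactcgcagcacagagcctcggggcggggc
Atp6v0b, chr4:117887292-117887417, minus strand: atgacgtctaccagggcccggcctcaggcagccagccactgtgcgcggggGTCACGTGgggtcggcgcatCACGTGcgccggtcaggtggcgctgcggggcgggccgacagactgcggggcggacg
Atp6v0d1, chr8:105566015-105566119, minus strand: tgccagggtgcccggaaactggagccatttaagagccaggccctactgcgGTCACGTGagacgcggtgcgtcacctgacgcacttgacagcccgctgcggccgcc
Lamp1 holds 4 copies of CACGTG, and Mcoln1, Atp6v0b and the printed promoter of Cln3 hold 2 each. Cln3 has another RefSeq promoter, at chr7:126585768-126586067, that holds none, and Ctsa likewise has another without it. A gene was counted if any of its promoters held the element. The first copy lies 61 bases before the start of Lamp1, 71 before that of Mcoln1 and 36 before that of Atp6v0b. None of the 6 genes shown passed the test with all 6 libraries, as given below. A match is a description of letters only; binding was not measured.

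Across the 42 lysosomal genes, 6 were higher in shLmna cells (14.3%, against 7.96% of all genes tested) and 1 was lower (2.38%, against 5.78%), at an adjusted p below 0.05 in edgeR's quasi-likelihood test. The higher genes were Ppt1, Asah1, Lipa, Tpp1, Lamp2 and Tmem106b, and the lower gene was Ctsz. The median log2 fold change was 0.136, against 0.003 over all genes tested. All 3 shLmna libraries lay above all 3 shControl libraries for 17 of the 42 genes (40.5%, against 16.8% of all genes), and below them for 8 (19%, against 15.7%). By the criteria of the study, which add an absolute log2 fold change of at least 1 and a mean normalized count of at least 5, 2 genes were higher, Tpp1 and Tmem106b, where 3.97% of all genes were. Tpp1, Tmem106b and Tfeb passed the filter on low counts through the shLmna libraries alone, so a difference was built into their being tested. Of the 39 genes at the filter's level in all 6 libraries 4 were higher (10.3%, against 6.54% of all genes at that level). The genes, their roles and the lists below were chosen with earlier results of these data known, so their shares are descriptions only.

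The counts moved with single libraries, and so did those over all genes. Without shControl replicate 1, 3 lysosomal genes were higher (7.14%, against 5.42% of all genes tested in that fit), without replicate 2, 2 were (4.76%, against 3.85%), and without replicate 3, 6 were (14%, against 9.61%). Without shLmna replicate 1, 3 were higher (7.14%, against 5.44%), without replicate 2, 3 were (6.98%, against 5.42%), and without replicate 3, 2 were (4.65%, against 4.58%). Ctsz was no longer lower without shControl replicate 1 or 2, or without shLmna replicate 2 or 3, while 2.04% to 7.61% of all genes were lower in the fits without 1 library.

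The groups of all 7 called genes were apart with all libraries. Leaving out the libraries with melanocyte transcripts could therefore hardly reverse a direction, and none was reversed. In the 4 remaining libraries 7 of 43 genes were higher (16.3%, against 7.7% of genes tested there), since Tpp1 was lost and Atp6ap2 and Tfeb were gained, and Ctsz alone was lower (2.33%, against 5.45%). With the melanocyte level as a covariate 10 of 42 were higher (23.8%, against 12.1%), the same 6 with Ctsb, Grn, Atp6v0d1 and Atp6ap2, and 2 were lower (4.76%, against 9.68%), Ctsz and Atp6v0b. Both counts of higher genes include some that passed the filter through shLmna libraries alone. These were Tmem106b and Tfeb in the 4 libraries, and Tmem106b and Tpp1 with the covariate, so the shares are descriptions only. In bulk RNA, fewer cells with a transcript and less of it per cell cannot be told apart.

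**Figure D2:**
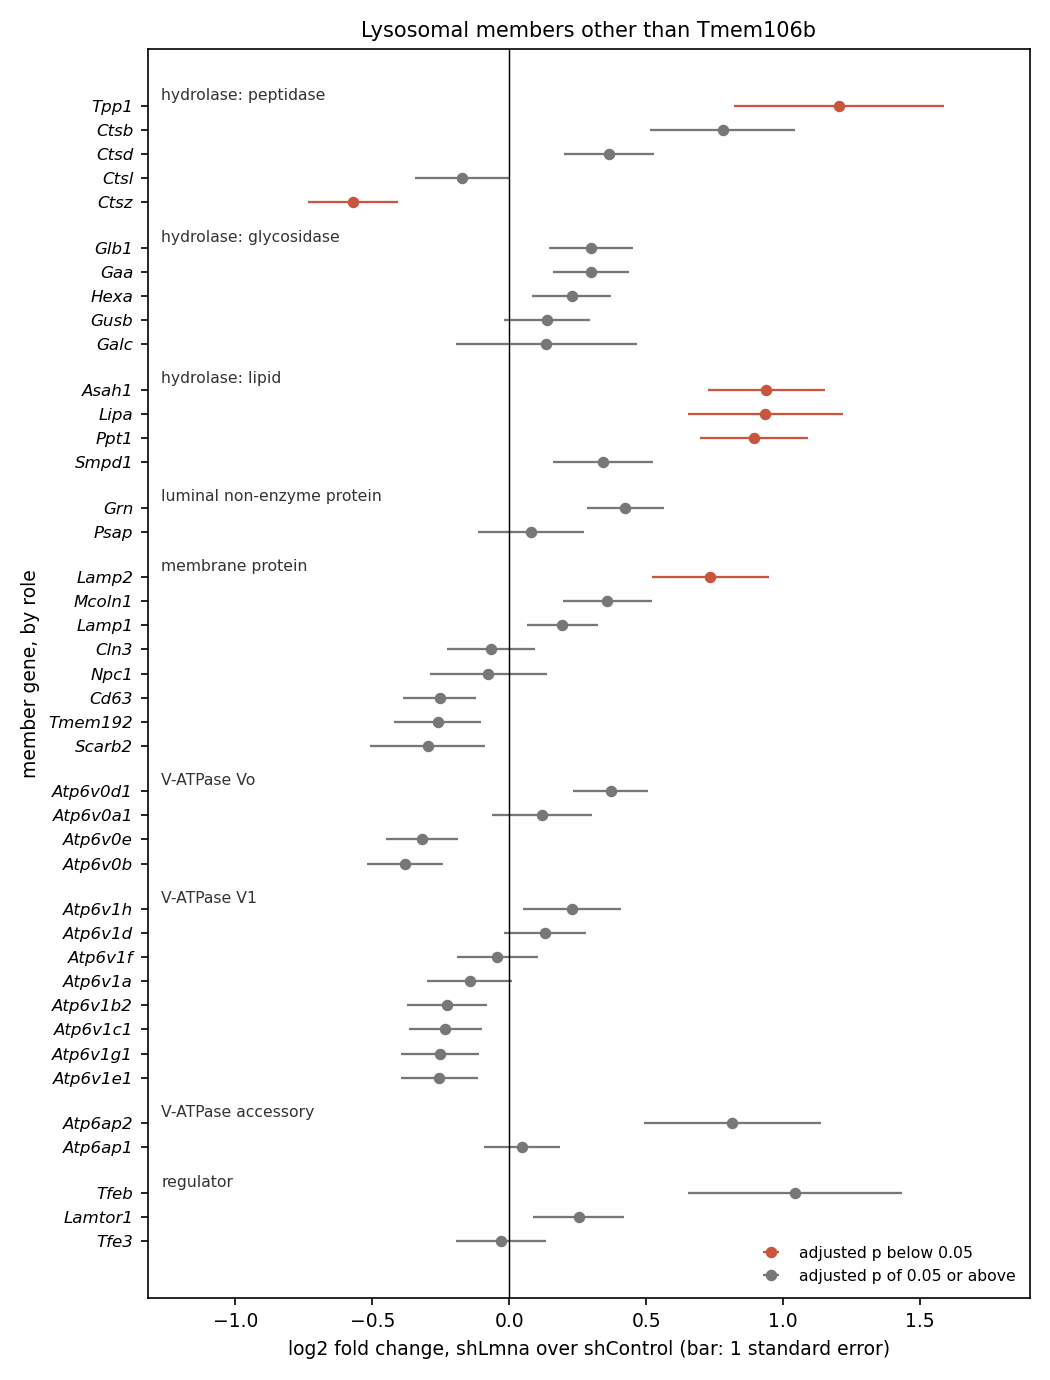
Log2 fold change (shLmna over shControl, 3 libraries each; bar, 1 standard error) of 41 of the 42 tested lysosomal genes, grouped by role; red points have an adjusted p below 0.05. The lipid hydrolases all lie right of zero, the V1 subunits lie within 0.26 of it, and Tmem106b is left out because its shControl counts are 0 to 2.

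The lipid hydrolases held the most calls of any role. All 4 (Asah1, Lipa, Ppt1 and Smpd1) had separate groups with shLmna above shControl, where 16.8% of all genes did, 3 of the 4 rose, where 7.96% of all genes did, and their median log2 fold change was 0.915. The roles were chosen with earlier results of these data known, so these shares are a description and do not stand as support. Added together, their normalized counts came to 356 ± 71.3 (SD, n = 3) in shControl and 621 ± 71.5 in shLmna cells.

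Asah1 encodes acid ceramidase, which splits ceramide into sphingosine and a fatty acid, and lies at chr8:41340197-41374773. Its normalized counts were 164, 138 and 253 in shControl and 276, 416 and 358 in shLmna libraries. Every shLmna library was above every shControl library, and the highest of each group was the library with melanocyte transcripts. It rose by a log2 fold change of 0.94 ± 0.21 (adjusted p = 0.0096, edgeR), or 1.07 ± 0.19 (adjusted p = 0.000564, edgeR) in the 4 libraries without those. The call was lost on leaving out shControl replicate 2 (adjusted p = 0.0861, edgeR) or shLmna replicate 3 (adjusted p = 0.0564, edgeR).

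Ppt1 (chr4:122836242-122859175) encodes palmitoyl-protein thioesterase, which removes fatty acyl groups from S-acylated proteins and whose loss causes infantile neuronal ceroid lipofuscinosis. It stood at 46.8, 69.9 and 69.9 normalized counts in shControl and at 113, 114 and 120 in shLmna libraries. The shLmna libraries lay close together and well above the controls. The log2 fold change was 0.89 ± 0.20 (adjusted p = 0.00834, edgeR), and the call held on leaving out any of the 6 libraries in turn. The mean of the libraries with melanocyte transcripts was 1.05 times that of the other 4. The counted 3′ end of Ppt1 faces that of Cap1 on the opposite strand, and the use of strand in counting is not given in the sources used here.

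Lipa encodes lysosomal acid lipase, which frees cholesterol and fatty acids from lipoprotein lipids, and lies at chr19:34492318-34527474. Its normalized counts were 23.4, 21 and 42.2 in shControl and 42.8, 59.3 and 58.1 in shLmna libraries. The groups were barely apart, since shControl replicate 3 nearly reached shLmna replicate 1. Lipa rose, with a log2 fold change of 0.94 ± 0.28 (adjusted p = 0.0391, edgeR) with all libraries and 1.17 ± 0.31 (adjusted p = 0.0139, edgeR) with 4. It passed in 2 of the 6 fits that leave out 1 library, those without shControl replicate 3 or shLmna replicate 1, with adjusted p up to 0.208 (edgeR) in the others. Smpd1, the acid sphingomyelinase that yields ceramide from sphingomyelin, had normalized counts of 72.5 to 91.6 in shControl and 93.9 to 111 in shLmna libraries (log2 fold change 0.34 ± 0.18, adjusted p = 0.241, edgeR). Its 3′ end overlaps that of Apbb1 on the opposite strand.

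**Figure D3:**
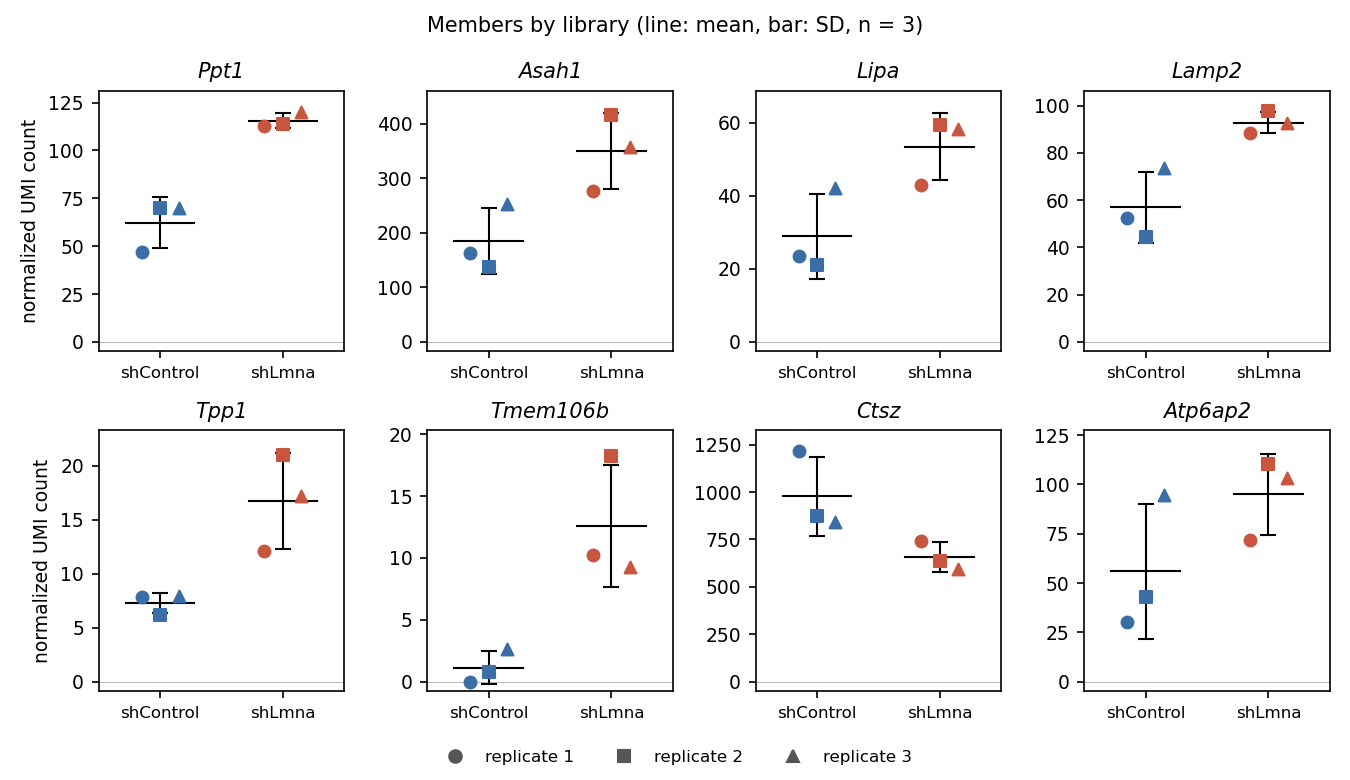
Normalized UMI counts of 8 lysosomal genes in each library (symbol, replicate number; line, mean; bar, SD, n = 3). Ppt1, Asah1, Lipa, Lamp2, Tpp1 and Tmem106b separate with shLmna above shControl, Ctsz separates the other way, and Atp6ap2 overlaps because shControl replicate 3 is high.

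The peptidases moved in both directions: 1 of 5 rose (20%, against 7.96% of all genes) and 1 fell (20%, against 5.78%). Tpp1 (chr7:105744811-105752235) encodes tripeptidyl peptidase, which removes tripeptides from the amino end of proteins, and whose loss causes late infantile neuronal ceroid lipofuscinosis. It was counted only 8, 8 and 6 times in shControl and 13, 23 and 13 times in shLmna libraries. The groups were apart at a low level, and the gene entered the test through its shLmna counts alone. The log2 fold change of 1.20 ± 0.38 just passed (adjusted p = 0.0494, edgeR), and it failed on leaving out any single library (adjusted p 0.0624 to 0.21, edgeR) and in the 4 libraries (1.04 ± 0.49, adjusted p = 0.172, edgeR). With the melanocyte covariate it passed (adjusted p = 0.0315, edgeR).

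Ctsz (chr2:174427493-174439039) encodes cathepsin Z, a carboxypeptidase of the cysteine cathepsin family, and was the lysosomal gene that fell. Its normalized counts were 1219, 875 and 841 in shControl and 744, 638 and 592 in shLmna libraries. Every shLmna library was below every control, though shControl replicate 1 was well above the other controls. Ctsz fell, with a log2 fold change of -0.57 ± 0.16 (adjusted p = 0.0312, edgeR), -0.64 ± 0.18 (adjusted p = 0.0226, edgeR) in the 4 libraries, and -0.39 (adjusted p = 0.136, edgeR) without shControl replicate 1. It passed in 2 of the 6 fits that leave out 1 library, and its 3′ end overlaps Nelfcd on the opposite strand.

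The other cathepsins did not pass. Ctsl, the cysteine protease with the highest count among the peptidases, ranged from 1770 to 2357 normalized counts in shControl and from 1457 to 2261 in shLmna libraries (log2 fold change -0.17 ± 0.17, adjusted p = 0.548, edgeR). The high library of each group was the one with melanocyte transcripts, where Ctsl averaged 1.34 times the other 4. The aspartic protease gene Ctsd had a log2 fold change of 0.36 ± 0.17 (adjusted p = 0.163, edgeR) and shares 3′ end sequence with Gm49369 on its own strand. Ctsb, counted 13 to 27 times in shControl and 32 to 38 times in shLmna libraries, had 0.78 ± 0.27 (adjusted p = 0.0662, edgeR). It passed with the melanocyte covariate (adjusted p = 0.0349, edgeR) and after correction for GC content (0.0341), and its 3′ end overlaps Fdft1 on the opposite strand.

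The glycosidases had positive estimates with all libraries, yet none passed. All 5 tested (Gaa, Hexa, Glb1, Gusb and Galc) had positive log2 fold changes, from 0.13 to 0.30. In 4 of them, all but Galc, the groups were apart upwards (80%, against 16.8% of all genes). The role was chosen with earlier results of these data known, so this share is a description. Gaa, the acid alpha-glucosidase that degrades lysosomal glycogen, had normalized counts of 506, 471 and 449 in shControl and 650, 546 and 558 in shLmna libraries (log2 fold change 0.30 ± 0.14, adjusted p = 0.171, edgeR). The lowest knockdown library thus exceeded the highest control by a small margin. Hexa, which takes part in ganglioside breakdown, stood at 253 to 310 normalized counts in shControl and at 314 to 358 in shLmna libraries (0.23 ± 0.15, adjusted p = 0.331, edgeR). Summed over the class, the level was 1086 ± 32.8 in shControl and 1297 ± 56.5 in shLmna cells, a difference that was not tested. Gla, the alpha-galactosidase A gene, was counted 3 to 11 times per library and Man2b1, the alpha-mannosidase gene, likewise 3 to 11 times, too few for the filter.

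Among the luminal proteins that are not enzymes, Grn encodes progranulin, which is cleaved into granulins in the lysosome. Its normalized counts were 1689, 1422 and 1373 in shControl and 2135, 2083 and 1794 in shLmna libraries. The groups were apart, and the log2 fold change of 0.42 ± 0.14 fell just short (adjusted p = 0.0597, edgeR). It was 0.34 ± 0.17 (adjusted p = 0.193, edgeR) in the 4 libraries, while it passed with the melanocyte covariate (adjusted p = 0.0231, edgeR) and after GC correction (0.0338). Psap, the precursor of the saposins that present sphingolipids to their hydrolases, overlapped between groups, at 147 to 194 and 127 to 212 normalized counts (log2 fold change 0.08 ± 0.19, adjusted p = 0.842, edgeR). Npc2, a soluble cholesterol carrier, was counted 6 to 14 times in shControl and 4 to 9 times in shLmna libraries and was removed by the filter.

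Of 9 membrane proteins, 2 rose (22.2%, against 7.96% of all genes) and none fell, where 5.78% of all genes did. The median log2 fold change of the 9 was -0.067. Lamp2 (chrX:38401357-38456454) encodes a heavily glycosylated protein of the limiting membrane, 1 isoform of which serves as receptor of chaperone-mediated autophagy. Its normalized counts were 52.6, 44.3 and 73.8 in shControl and 88.4, 97.6 and 92.5 in shLmna libraries. The groups were apart, with shControl replicate 3 nearest to the knockdown libraries. Lamp2 rose, with a log2 fold change of 0.73 ± 0.21 (adjusted p = 0.0339, edgeR) with all libraries and 0.91 ± 0.24 (adjusted p = 0.0149, edgeR) with 4. It passed in 1 of the 6 fits that leave out 1 library, that without shControl replicate 3, with adjusted p up to 0.185 (edgeR) in the others. The last 1000 bases of Lamp2 are 33.5% GC, against a median of 47.1% over all genes, and after correction for GC content it no longer passed (log2 fold change 0.45, adjusted p = 0.122, edgeR).

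Tmem106b encodes a transmembrane protein of late endosomes and lysosomes that bears on lysosome size and acidification, and lies at chr6:13069759-13089269. It was counted 0, 1 and 2 times in the shControl libraries and 11, 20 and 7 times in the shLmna libraries. No control library rose above the floor of 3 UMIs that a count of 0 allows, so the change is a bound: the shLmna mean was at least 4.1-fold higher than 3 UMIs per library. Its adjusted p was 0.00348 (edgeR) with all libraries and 0.00331 (edgeR) in the 4 libraries. Since it entered the test through its shLmna counts alone, these values do not stand as support for a difference, and the floor covers counting error only.

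The remaining membrane proteins did not pass, and their log2 fold changes lay between -0.30 and 0.36. Cd63, a tetraspanin of late endosomes with the highest count of this class, was lower in every shLmna library, at 2820 to 2869 normalized counts against 3029 to 3707 (log2 fold change -0.25 ± 0.13, adjusted p = 0.234, edgeR). Lamp1, whose promoter with 4 E-boxes is printed above, was higher in every shLmna library, at 1679 to 1790 against 1441 to 1615 (0.19 ± 0.13, adjusted p = 0.357, edgeR), and its 3′ end overlaps Grtp1 on the opposite strand. Mcoln1, the lysosomal calcium channel, likewise separated upwards (0.36 ± 0.16, adjusted p = 0.161, edgeR). Cln3, Npc1, Tmem192 and Scarb2 overlapped between the groups.

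The V-ATPase genes contrasted with the lipid hydrolases in their counts. Of 14 tested subunits and accessory proteins none rose or fell with all libraries in edgeR, where 7.96% of all genes rose and 5.78% fell. In that test 4 of the 14 had an unadjusted p below 0.05, and DESeq2 and limma-voom called none either. Their median log2 fold change was -0.095. The groups were apart upwards in 1 (7.14%, against 16.8% of all genes) and downwards in 6 (42.9%, against 15.7%). Both roles were chosen with earlier results of these data known, and no test of the difference between the pump and the hydrolases was made.

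In the V1 sector, 6 of 8 subunits had negative log2 fold changes and all 8 lay between -0.26 and 0.23. Atp6v1e1, a peripheral stalk subunit and the one with the highest count, had normalized counts of 663, 764 and 602 in shControl and 601, 526 and 576 in shLmna libraries (log2 fold change -0.26 ± 0.14, adjusted p = 0.256, edgeR). The groups were apart by less than 2 counts. Atp6v1c1, Atp6v1g1 and Atp6v1b2, which encode subunits C, G and B, were also lower in every shLmna library without passing (adjusted p 0.272 to 0.335, edgeR). The sum over the sector was 3281 ± 131 in shControl and 3015 ± 128 in shLmna cells.

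The Vo sector split by subunit, with none past the threshold. Atp6v0d1, which encodes subunit d of the central stalk, had normalized counts of 437, 505 and 534 in shControl and 659, 643 and 604 in shLmna libraries (log2 fold change 0.37 ± 0.14, adjusted p = 0.0889, edgeR). It was the pump gene whose groups were apart upwards, and it passed with the melanocyte covariate (adjusted p = 0.0325, edgeR). Atp6v0e and Atp6v0b, a small membrane subunit and a proteolipid of the proton-carrying ring, were apart downwards, with log2 fold changes of -0.32 ± 0.13 (adjusted p = 0.124, edgeR) and -0.38 ± 0.14 (adjusted p = 0.0826, edgeR). Atp6v0b passed with the melanocyte covariate (adjusted p = 0.0324, edgeR). The promoters of all 3 hold CACGTG, and their estimates lay on either side of zero. The 3′ end of Atp6v0b overlaps Gm12841 on the opposite strand.

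Of the accessory proteins, Atp6ap2 depended on the choice of libraries. It encodes the prorenin receptor, a transmembrane protein needed for V-ATPase assembly. Its normalized counts were 30.2, 42.7 and 94.9 in shControl and 71.7, 110 and 103 in shLmna libraries. The groups overlapped through shControl replicate 3, a library with melanocyte transcripts, and in the libraries with such transcripts Atp6ap2 averaged 1.66 times its mean in the other 4. Its log2 fold change was 0.81 ± 0.32 (adjusted p = 0.108, edgeR) with all libraries, 1.23 ± 0.27 (adjusted p = 0.00418, edgeR) with 4, and 0.91 (adjusted p = 0.00676, edgeR) with the covariate. Its 3′ end is 34.1% GC, and after GC correction the log2 fold change was 0.58 (adjusted p = 0.137, edgeR). Atp6ap1, the other accessory subunit, stood at 610 to 792 and 715 to 729 normalized counts (0.05 ± 0.14, adjusted p = 0.867, edgeR).

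**Figure D4:**
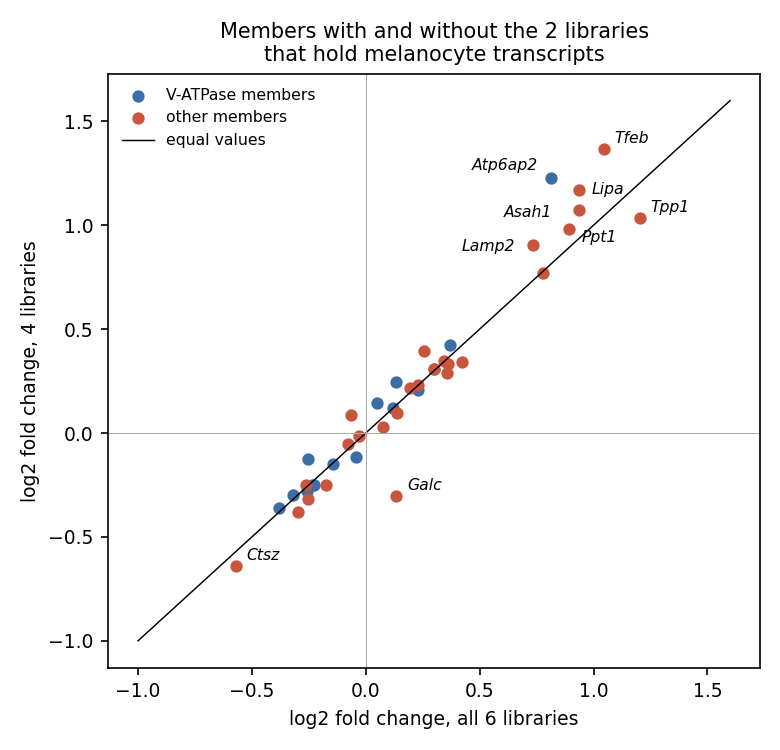
Log2 fold change of each lysosomal gene with all 6 libraries (horizontal) against the same without shControl replicate 3 and shLmna replicate 2 (vertical; blue, V-ATPase; red, others; line, equal values; Tmem106b is beyond both axes). Most points lie near the line, Atp6ap2 moves from 0.81 to 1.23, and Galc changes sign from 0.13 to -0.30.

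Of the regulators none passed with all libraries. Tfeb was counted 11, 10 and 8 times in shControl and 31, 14 and 13 times in shLmna libraries. All 3 knockdown libraries, through which the gene entered the test, were above the controls, with shLmna replicate 1 well above the rest. The log2 fold change was 1.04 ± 0.39 (adjusted p = 0.0917, edgeR), and 1.37 ± 0.43 (adjusted p = 0.0397, edgeR) in the 4 libraries. Tfe3 had normalized counts of 139 to 175 and 138 to 158 (-0.03 ± 0.16, adjusted p = 0.934, edgeR), and Lamtor1, a subunit of the Ragulator complex that anchors mTORC1 to the lysosome, of 370 to 452 and 399 to 610 (0.25 ± 0.17, adjusted p = 0.346, edgeR). Messenger RNA level does not show where in the cell TFEB and TFE3 proteins were.

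Of the 6 genes that rose, 5 had a RefSeq promoter (Asah1 was the exception), and none of the 5 held CACGTG. On reading these promoters, a related sequence, TCATGTG, was noticed in Ppt1 and Tpp1 and was then searched on both strands. It was in 8 of the 42 lysosomal promoters (19%), against 4.31% of all genes with a promoter. Of the 35 tested lysosomal genes with a promoter 5 held it (14.3%), against 2.28% of all tested genes with one. Of the other lysosomal genes compared below, 8 of 100 with a promoter held it (8%). Since it was searched after the promoters of the genes that rose were seen, these shares are descriptions and do not stand as support. So is its presence in Ppt1 and Tpp1, and the shares of the lysosomal promoters include both genes. The bases from 60 before to 40 after the start of each are shown, with this sequence in capitals on either strand.
Ppt1, chr4:122836167-122836266, plus strand: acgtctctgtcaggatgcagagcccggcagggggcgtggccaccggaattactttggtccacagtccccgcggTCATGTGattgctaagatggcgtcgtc
Tpp1, chr7:105752196-105752295, minus strand: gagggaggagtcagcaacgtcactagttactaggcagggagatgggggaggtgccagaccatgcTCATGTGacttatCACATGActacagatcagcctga
Tpp1 holds 2 copies, 1 on each strand, and Ppt1 holds 1.

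Other genes of the lysosome were compared from 5 further lists of 132 genes, of which 96 were tested. Of the 96, 9 rose (9.38%, against 7.96% of all genes) and 1 fell (1.04%, against 5.78%), with a median log2 fold change of 0.13. Among 29 other hydrolases 4 rose (13.8%, against 7.96% of all genes) and none fell, where 5.78% of all genes did. Those that rose include Sgsh (1.20 ± 0.25, adjusted p = 0.00536, edgeR) and Naglu (1.11 ± 0.30, adjusted p = 0.0232, edgeR), which both degrade heparan sulphate, and Dnase2a (0.92 ± 0.20, adjusted p = 0.00631, edgeR), which digests DNA in the lysosome. The 3′ end of Sgsh overlaps Card14 on the opposite strand.

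Among 21 other membrane proteins 1 rose (4.76%, against 7.96% of all genes) and 1 fell (4.76%, against 5.78%). Tmem55a, a phosphoinositide phosphatase, rose (1.54 ± 0.38, adjusted p = 0.0146, edgeR) and the transporter-like Mfsd1 fell (-0.58 ± 0.16, adjusted p = 0.0287, edgeR). Tmem55a was counted 5, 22 and 22 times in shControl and 47, 57 and 35 times in shLmna libraries. It too was at the filter's level in every shLmna library but not in every shControl library, so its p-value does not stand as support. Of 11 further pump subunits and assembly factors 2 rose (18.2%, against 7.96% of all genes), and these were not subunits. They were Ncoa7 (1.85 ± 0.38, adjusted p = 0.00513, edgeR) and Oxr1 (1.05 ± 0.32, adjusted p = 0.0397, edgeR), which share a domain that binds the V-ATPase. Ncoa7 was counted 4, 15 and 6 times in shControl and 29, 40 and 18 times in shLmna libraries. It was at the filter's level in every shLmna library but not in every shControl library. A difference was thus built into its being tested, and its p-value does not stand as support. Oxr1, 32.5% GC at its 3′ end, did not pass after GC correction (adjusted p = 0.0918, edgeR). Among 20 genes of lysosome fusion, positioning and the mTORC1 platform 2 rose (10%, against 7.96% of all genes) and none fell, where 5.78% of all genes did. They were the small GTPase genes Arl8b, which moves lysosomes towards the cell periphery (1.00 ± 0.20, adjusted p = 0.00412, edgeR), and Rraga, which recruits mTORC1 (0.92 ± 0.22, adjusted p = 0.0119, edgeR). Of 15 genes that sort hydrolases to lysosomes none passed in edgeR, with 2 at an unadjusted p below 0.05. Without the libraries that held melanocyte transcripts 10 of 95 other lysosomal genes rose (10.5%, against 7.7% of all genes) and none fell, where 5.45% of all genes did.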

How the data were processed

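The authors deposited raw UMI counts per gene from 3′ MARS-seq libraries. Per the labels' processing notes, reads were trimmed with cutadapt, aligned to mm10 with STAR 2.4.2a and counted with HTSeq. Batch-adjusted log2 values and the authors' own DESeq2 comparison were not used. Counts were tested with edgeR 4.0.16 (R 4.3.3; TMM scaling, filterByExpr with a minimum count of 10, glmQLFit, glmQLFTest), 3 against 3, with Benjamini-Hochberg adjustment over 8969 genes and a threshold of 0.05. DESeq2 1.42.0, limma-voom (limma 3.58.1), other scalings and filters, a GC correction, a replicate block and fits without each library were alternatives; the 2 treatments of melanocyte transcripts were added after seeing the data. Code was tested on simulated data. The genes, their roles and the other lists were chosen with earlier results of these data known. Genes named were those past the threshold, the highest count of each role, the regulators, those removed by the filter, and, of other lists, at most the 3 largest changes past it; Ctsb, Ctsd, Smpd1, Psap, Lamp1, Mcoln1, the pump subunits, Atp6ap2, Hexa and Galc were added after their values were seen. The values of 1 gene that rose among the other hydrolases are not reported here. Deviations of the libraries numbered 1 went partly together (correlation 0.352), while those numbered 2 (-0.115) and 3 (0.00519) showed little of this. The pairs numbered 2 and 3 each hold 1 library with melanocyte transcripts. These values therefore cannot decide whether numbers pair libraries, and the replicate block is given as an alternative only. Gene positions and 3′ ends came from GENCODE M21 (mm10); promoters from RefSeq (GRCm38.p6).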

Additional observations from a re-analysis of the deposited data

How the results depend on the processing

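Among the 42 tested lysosomal genes, 6 were higher and 1 lower. A mean count of at least 50 left 36 of them tested and 3 higher. That filter removed Lipa, Tpp1 and Tmem106b, so this fall was fixed by the filter and is not a failed test. The covariate for melanocyte genes gave 10 higher and 2 lower. Leaving out 1 library gave 2 to 6 higher and 0 to 1 lower. The 2 genes past the study's criteria became 1 with upper-quartile scaling, no filter, DESeq2, limma-voom, the replicate block, or GC correction with the block. The number was 5 in the 4 libraries and 1 to 4 without 1 library. It was 0 with a mean of at least 50, where both genes were removed by the filter. Of other lysosomal genes 9 were higher, 4 with a mean of at least 50 and 4 to 12 without 1 library. The filter at 50 removed Sgsh, Naglu, Tmem55a, Oxr1 and Ncoa7. The 1 lower became 0 with DESeq2 or 4 libraries, 2 with the replicate block with or without GC correction, 4 with the covariate, and 0 to 3 without 1 library. DESeq2 lost Tpp1 (adjusted p = 0.208), Lipa (0.0836) and Lamp2 (0.065) and gained Grn (0.0428). With the replicate block 7 lysosomal genes were higher: Tpp1 was lost (adjusted p = 0.0644, edgeR), Grn (0.0443) and Atp6ap2 (0.0296) were gained. With GC correction and the block Atp6ap2 did not pass (adjusted p = 0.0794, edgeR). The cause of these changes was not tested.

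Of genes never called, 8 changed sign without 1 library, over these ranges of log2 fold change: Galc -0.1937 to 0.3946, Psap -0.0885 to 0.2484, Npc1 -0.1721 to 0.0792, Cln3 -0.1704 to 0.0101, Atp6v0a1 -0.0709 to 0.2901, Atp6v1f -0.1525 to 0.0684, Atp6ap1 -0.055 to 0.1344 and Tfe3 -0.0955 to 0.0761. In the 4 libraries Galc was -0.304 and Cln3 0.0852, and Tfe3 was 0.0233 with GC correction and 0.0242 with the replicate block added. Depth limits Tpp1, Tmem106b and Tfeb, counted at most 31 times in any library.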
